A study of Homo sapiens with 6 samples.

Results

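The hypoxia-inducible factors (HIFs) and the enzymes that read oxygen for them were followed in PLC/PRF5, a human hepatocellular carcinoma (HCC) cell line, with and without knockdown of MTR4. The set was the 10 genes listed as HIF subunits, HIF prolyl hydroxylases, VHL and FIH, matched by symbol among the 60675 genes counted. All 10 were among the 18075 genes that passed the filter on low counts. RNA was sequenced from 3 libraries labelled control and 3 labelled MTR4 KD, all from cells grown in DMEM with fetal bovine serum. MTR4, whose gene symbol is MTREX, is an RNA helicase that works with the nuclear exosome. The study's text describes this sequencing as a comparison of cells before and after doxycycline-induced knockdown, from a lentiviral short hairpin RNA under a tetracycline-responsive vector. The labels name no doxycycline, and the design text calls the control cells wild. No library of doxycycline-treated cells with a scrambled hairpin was analysed here. If doxycycline was given to the MTR4 KD cells alone, it and the knockdown cannot be told apart in these libraries. The study reports, from separate mRNA measurements, no effect of doxycycline on glycolytic genes in cells with an inducible scrambled hairpin. That report covers glycolytic genes and not the 10 members. Nothing in the labels says that the 3 libraries of a group came from separate cultures, so the p-values measure the spread between these libraries.

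HIF is a pair of an oxygen-regulated alpha subunit and a stable beta subunit, and the pair binds DNA near genes of glucose uptake, glycolysis, blood vessel growth and survival in low oxygen. When oxygen is present the prolyl hydroxylases mark the alpha protein, VHL binds the mark and the protein is degraded, while FIH keeps the alpha subunit from its coactivators. The alpha subunits are thus known to be set mainly at the protein, which RNA sequencing does not measure. The question was whether lower expression of HIF target genes in MTR4 KD was also seen in the mRNAs of the HIFs themselves.

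EGLN3, the prolyl hydroxylase PHD3 and itself a known HIF target, fell 2.76-fold in MTR4 KD. It was the single member of the 10 that passed edgeR's quasi-likelihood test on the condition alone. The mRNAs of the main alpha subunits, EPAS1 (HIF-2 alpha) and HIF1A (HIF-1 alpha), were lower in every MTR4 KD library than in any control library. Their mean levels were 1.27-fold and 1.09-fold below control, and neither passed that test. A second edgeR fit, with a read class described below, called both lower, at adjusted p of 5.4e-04 and 0.0474. That fit called 10.8% of all genes tested lower. DESeq2's Wald test called EPAS1, at an adjusted p of 0.0140, and not HIF1A, and limma-voom called neither. At an adjusted p of 0.05 in edgeR's test on the condition alone, 30 of 62 tested HIF target genes (48.4%) fell and 0 rose. Of all genes tested 2.12% were lower and 1.48% higher. In the fit with the read class 47 of the 62 were lower and 1, HMOX1, was higher. At an unadjusted p under 0.05 the test on the condition alone had 44 targets lower and 1, HMOX1, higher. The share of all genes at that unadjusted p is not given here. After adjustment DESeq2 called 41 targets lower and 1 higher, and limma-voom 30 lower and 0 higher. DESeq2 also called more of all genes than edgeR did, as given in the last section. VHL, FIH and the other prolyl hydroxylases did not pass in edgeR's test on the condition alone.

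The starts of the alpha subunit and sensor genes are shown first, since HIF binds the short core ACGTG or GCGTG and several of these genes are known HIF targets. Each line holds the 250 bases before the gene's start, 5′ to 3′ on the gene's own strand, from RefSeq on GRCh38.p14, with each core on either strand in capitals. CA9, carbonic anhydrase 9, is printed beside them because it had the lowest fold change of all target genes tested. The windows are chr14:61695263-61695512 on the plus strand for HIF1A, chr2:46297157-46297406 on the plus strand for EPAS1, chr1:231422288-231422537 on the minus strand for EGLN1, chr14:33951075-33951324 on the minus strand for EGLN3 and chr9:35673678-35673927 on the plus strand for CA9.
HIF1A: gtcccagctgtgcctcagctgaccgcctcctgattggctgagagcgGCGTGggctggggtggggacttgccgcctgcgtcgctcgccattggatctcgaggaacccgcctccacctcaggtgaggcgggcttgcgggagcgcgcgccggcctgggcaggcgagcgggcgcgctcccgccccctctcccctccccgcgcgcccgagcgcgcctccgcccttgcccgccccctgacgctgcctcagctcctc
EPAS1: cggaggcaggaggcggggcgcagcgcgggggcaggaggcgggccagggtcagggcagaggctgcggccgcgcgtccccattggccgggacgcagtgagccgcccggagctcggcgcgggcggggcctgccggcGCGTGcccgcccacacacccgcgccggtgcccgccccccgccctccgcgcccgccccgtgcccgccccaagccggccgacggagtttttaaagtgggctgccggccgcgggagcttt
EGLN1: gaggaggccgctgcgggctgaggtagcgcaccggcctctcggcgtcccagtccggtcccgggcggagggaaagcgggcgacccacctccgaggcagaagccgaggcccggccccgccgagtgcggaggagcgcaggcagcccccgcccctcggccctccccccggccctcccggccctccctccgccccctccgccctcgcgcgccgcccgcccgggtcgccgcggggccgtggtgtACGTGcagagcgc
EGLN3: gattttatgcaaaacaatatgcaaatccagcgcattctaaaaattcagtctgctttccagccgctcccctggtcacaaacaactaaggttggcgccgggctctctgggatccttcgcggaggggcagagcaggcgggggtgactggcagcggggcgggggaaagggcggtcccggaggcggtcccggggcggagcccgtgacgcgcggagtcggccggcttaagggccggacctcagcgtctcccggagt
CA9: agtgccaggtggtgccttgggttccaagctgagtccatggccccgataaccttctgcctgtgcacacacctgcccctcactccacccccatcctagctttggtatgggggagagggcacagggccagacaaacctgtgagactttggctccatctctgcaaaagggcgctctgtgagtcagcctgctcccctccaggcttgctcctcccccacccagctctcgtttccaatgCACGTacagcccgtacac
HIF1A held 1 GCGTG, which began 204 bases before its start, and EPAS1 held 1 GCGTG at 117 bases. EGLN1 held 1 ACGTG at 13 bases, and CA9 held 1 ACGTG on the opposite strand, read here as CACGT, at 18 bases. EGLN3 held neither core in this window, which says only that these letters are not in these bases. Of all 35116 windows of this length, 43.2% held at least 1 core and 18.5% held ACGTG on either strand. RefSeq windows were at hand for 8 of the 10 members, ARNT2 and VHL being the other two, and 5 of the 12 windows of those 8 genes held a core. The HIF3A window at its first listed start held 3 GCGTG. The first EGLN2 window held the palindrome CACGTG, in which ACGTG is read on both strands, as do 6.35% of all windows.

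The knockdown was seen in the libraries. MTREX (chr5:55307989-55425579, GRCh38.p14) had 72.2, 87.4 and 74.4 CPM (counts per 1e+06 reads on genes, scaled by TMM) in control replicates 1, 2 and 3, and in MTR4 KD replicates 1, 2 and 3 it had 44.6, 48.8 and 44.1 CPM. There was no overlap, and MTREX had a log2 fold change of −0.77 ± 0.09 (SE), with an adjusted p of 0.00641 by edgeR with Benjamini-Hochberg adjustment. Reads on genes ran from 60686786 to 72708682 per library. The libraries fell into 2 read classes that crossed the groups: in control 1, control 3 and MTR4 KD 3, 34.7% to 37.5% of reads had no unique position, against 14.8% to 18.2% in control 2, MTR4 KD 1 and MTR4 KD 2. A second fit therefore held the read class as a term beside the condition, and both fits are given for the members. All 9 hepatocyte and hepatoma markers lay above 10 CPM in every library, and their summed level was 24100 to 25550 CPM in control and 24190 to 26000 CPM in MTR4 KD. The 7 matched markers of leukocytes, endothelium and fibroblasts summed to 5.29 to 7.83 CPM in control and 3.73 to 8.40 CPM in MTR4 KD. Among the hepatocyte markers ALB, APOA1 and TTR rose.

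The alpha subunits carry the oxygen-regulated part of the factor. HIF1A (chr14:61695513-61748258) stood at 78.1, 77.7 and 79.3 CPM in control replicates 1 to 3 and at 73.2, 71.7 and 70.6 CPM in MTR4 KD replicates 1 to 3. Every MTR4 KD library lay below every control library, and the spread within a group was small, with means of 78.4 ± 0.85 and 71.9 ± 1.29 CPM (SD, n = 3). In the fit of the condition alone the log2 fold change was −0.13, with a 95% interval of −0.25 to −0.00060 and an adjusted p of 0.264 by edgeR with Benjamini-Hochberg adjustment. With the read class in the fit the value was −0.13 and the adjusted p was 0.0474, and within the class with more and the class with fewer such reads the differences were −0.16 and −0.10. Without control replicate 2 the class with fewer such reads holds no control, so that fit rests on MTR4 KD 3 alone. It gave −0.16, and the fit of the condition alone gave −0.14 with an adjusted p of 0.209 by edgeR. Scaled to ACTB in place of all genes, HIF1A turned to 0.06, since ACTB had −0.19 in the TMM scaling and dividing by it moved the median of all genes to 0.19. In the annotation, 13.9% of the bases of the HIF1A transcript are shared with HIF1A-AS1, HIF1A-AS3 or another gene, and the counting strand is not given in the sources used here.

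EPAS1 (chr2:46297407-46386697), the alpha subunit of HIF-2, had the higher level and the larger difference. It stood at 271.8, 226.6 and 259.7 CPM in control replicates 1 to 3 and at 192.2, 194.8 and 210.3 CPM in MTR4 KD replicates 1 to 3. The highest MTR4 KD library stayed below the lowest control library, which was control 2. EPAS1 had a log2 fold change of −0.34 ± 0.08 (SE), with a 95% interval of −0.54 to −0.15 and an adjusted p of 0.0779 by edgeR with Benjamini-Hochberg adjustment. The same interval as a ratio of MTR4 KD to control ran from 0.689 to 0.901. With the read class in the fit it was −0.28, with an adjusted p of 5.4e-04 by edgeR, and within the classes it was −0.34 and −0.23. Without control replicate 2 it was −0.42, with an adjusted p of 0.0242 by edgeR with Benjamini-Hochberg adjustment. With any other library left out it did not pass, at adjusted p of 0.0787 to 0.309 by edgeR. On all libraries DESeq2's Wald test gave an adjusted p of 0.0140 and limma-voom 0.0812. Scaled to ACTB, EPAS1 was at −0.15, with an adjusted p of 0.273 by edgeR.

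HIF3A (chr19:46297042-46343433), whose products are known to include inhibitors of the other alpha subunits, was near the floor of these data. It had 19, 41 and 12 reads in control replicates 1 to 3 and 9, 15 and 5 reads in MTR4 KD replicates 1 to 3. The groups overlapped in CPM, since MTR4 KD 2 lay above control 3. All 3 control libraries and 1 MTR4 KD library reached 10 reads, so the gene passed the filter through the controls. Its log2 fold change was −1.24, with a 95% interval of −2.50 to 0.02 and an adjusted p of 0.275 by edgeR with Benjamini-Hochberg adjustment. With the read class in the fit it was −1.60, with an adjusted p of 0.0268 by edgeR.

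**Figure D1:**
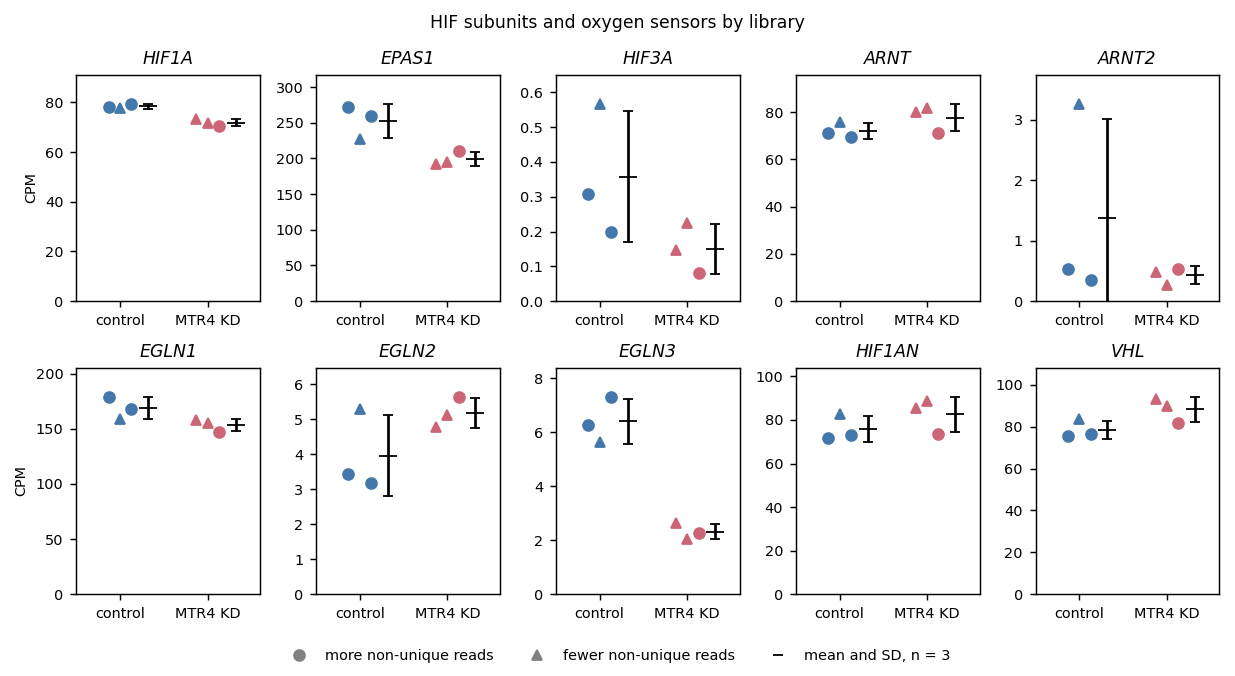
Level of each of the 10 genes in CPM (vertical axis from 0) in the 3 control libraries (blue) and the 3 MTR4 KD libraries (red), with circles for the read class with more reads without a unique position, triangles for the class with fewer, and the black bar for the mean and SD. EGLN3 stands apart, at 5.64 to 7.30 CPM in control and 2.05 to 2.62 CPM in MTR4 KD, while the 3.26 CPM of control 2 sets the control mean of ARNT2.

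The beta subunits are the DNA-binding partners of the alpha subunits. ARNT (chr1:150809713-150876599), the partner of HIF-1 alpha and HIF-2 alpha in most cells, stood at 71.2, 75.8 and 69.4 CPM in control replicates 1 to 3 and at 80.0, 81.8 and 71.2 CPM in MTR4 KD replicates 1 to 3. The groups overlapped, and the log2 fold change was 0.11, with a 95% interval of −0.07 to 0.28 and an adjusted p of 0.498 by edgeR with Benjamini-Hochberg adjustment. ARNT was at 0.06 with the read class in the fit, with an adjusted p of 0.394 by edgeR. ARNT2 (chr15:80404382-80597933), a beta subunit best known from neurons and kidney, had 33, 236 and 21 reads in control replicates 1 to 3 and 30, 18 and 33 reads in MTR4 KD replicates 1 to 3. A single library, control 2, was high and the other five overlapped. The log2 fold change of −1.69 had an adjusted p of 0.332 by edgeR, and with the read class in the fit it was −1.67 at 0.0470 by edgeR with Benjamini-Hochberg adjustment. Without control replicate 2 the value was −0.04 in the fit of the condition alone. In the fit with the read class it was then 0.28, which rests on MTR4 KD 3 alone.

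The prolyl hydroxylases mark the alpha subunits for VHL. EGLN1 (chr1:231363756-231422287), or PHD2, the main hydroxylase of HIF-1 alpha in oxygen, stood at 178.7, 159.0 and 168.1 CPM in control replicates 1 to 3 and at 158.2, 155.0 and 147.4 CPM in MTR4 KD replicates 1 to 3. The groups were apart by less than 1 CPM between control 2 and MTR4 KD 1. The log2 fold change was −0.14, with a 95% interval of −0.29 to 0.02 and an adjusted p of 0.332 by edgeR with Benjamini-Hochberg adjustment, and it turned to 0.06 when scaled to ACTB. With the read class in the fit it was −0.13, with an adjusted p of 0.103 by edgeR. Within the read classes it was −0.23 and −0.02. Without control replicate 2 the fit with the read class gave −0.24, which rests on MTR4 KD 3 alone, as does the −0.23.

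EGLN3 (chr14:33924227-33951074), or PHD3, known to be induced by HIF, was the member that fell. It stood at 6.28, 5.64 and 7.30 CPM in control replicates 1 to 3 and at 2.62, 2.05 and 2.28 CPM in MTR4 KD replicates 1 to 3. The groups were far apart, with means of 6.40 ± 0.84 and 2.32 ± 0.29 CPM (SD, n = 3). The log2 fold change was −1.46 ± 0.15 (SE), with a 95% interval of −1.81 to −1.11 and an adjusted p of 0.00348 by edgeR with Benjamini-Hochberg adjustment. It was −1.41 with the read class in the fit and −1.55 and −1.27 within the classes. It passed the threshold with each library left out in turn. Of all 18075 genes tested 0.913% had a lower fold change, and so did 6 of the 62 HIF targets.

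EGLN2 (chr19:40799191-40808434), or PHD1, could not be read as a level. In the annotation 95.8% of the bases of its transcript lie under exons of the read-through gene RAB4B-EGLN2 or another gene, and reads on 2 genes at once are set aside as ambiguous by the counter. What was left stood at 3.42, 5.28 and 3.17 CPM in control replicates 1 to 3 and at 4.78, 5.11 and 5.63 CPM in MTR4 KD replicates 1 to 3. The groups overlapped through control 2, and the log2 fold change of 0.38 had an adjusted p of 0.364 by edgeR with Benjamini-Hochberg adjustment. The fit with the read class gave 0.33, with an adjusted p of 0.178 by edgeR, and within the classes it ran opposite ways, at 0.77 and −0.10. Without control replicate 2 it was 0.64 in the fit of the condition alone, with an adjusted p of 0.0489 by edgeR. With the read class it was then 0.77, which rests on MTR4 KD 3 alone, as does the 0.77 within its class.

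HIF1AN (chr10:100535943-100559998) encodes FIH, which hydroxylates an asparagine of the alpha subunits. It stood at 71.8, 82.7 and 73.0 CPM in control replicates 1 to 3 and at 85.4, 88.6 and 73.6 CPM in MTR4 KD replicates 1 to 3. The groups overlapped, and the log2 fold change of 0.12 had a 95% interval of −0.10 to 0.34 and an adjusted p of 0.539 by edgeR with Benjamini-Hochberg adjustment. HIF1AN was at 0.05 with the read class in the fit, with an adjusted p of 0.467 by edgeR. VHL (chr3:10141778-10153667), the receptor of the ubiquitin ligase that binds hydroxylated HIF alpha, stood at 75.7, 83.7 and 76.4 CPM in control replicates 1 to 3 and at 93.1, 90.1 and 81.8 CPM in MTR4 KD replicates 1 to 3. MTR4 KD 3 lay below control 2, and each of the other pairs of libraries had MTR4 KD higher. The log2 fold change of VHL was 0.17, with a 95% interval of −0.01 to 0.34 and an adjusted p of 0.282 by edgeR with Benjamini-Hochberg adjustment, and it was 0.12 at an adjusted p of 0.0607 by edgeR with the read class in the fit.

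In all, 1 of the 10 members passed an adjusted p of 0.05 in the fit of the condition alone by edgeR, where 3.6% of all genes tested did. That member was lower, as were 2.12% of all genes, and 0 members were higher, against 1.48% of all genes. At an unadjusted p of 0.05, 0 members were higher by edgeR, DESeq2 and limma-voom. The share of all genes at that unadjusted p is not given here. In the fit with the read class 5 members passed, namely HIF1A, EPAS1, HIF3A, ARNT2 and EGLN3, where 20.2% of all genes did. All 5 were lower, against 10.8% of all genes, and 0 were higher, against 9.43%. Without control replicate 2 this fit called 4 members, where 15.2% of all genes tested passed. EPAS1, EGLN1 and EGLN3 were lower, against 8.22% of all genes, and EGLN2 was higher, against 7.02%. Of the 5, ARNT2 rested on control replicate 2 and HIF3A on at most 41 reads a library. HIF3A had also passed the filter through the controls, so its place among the lower members is not independent of that filter. The median log2 fold change of the 10 members was −0.13, against 0.01 over all genes tested.

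**Figure D2:**
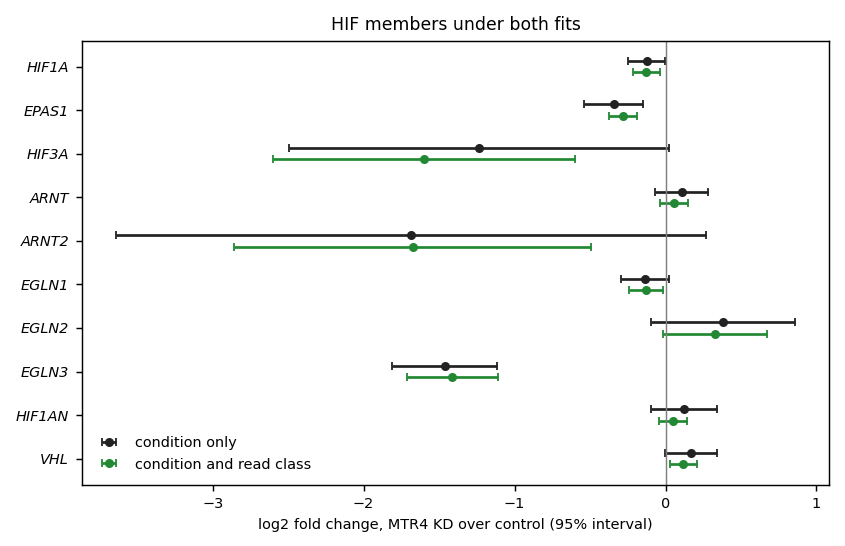
Log2 fold change of MTR4 KD over control (horizontal axis) for each of the 10 genes, as a point with its 95% interval, in the fit of the condition alone (black) and with the read class (green). The intervals of EGLN3, EPAS1 and HIF1A lie below 0 in both fits, and those of HIF3A and ARNT2 are the widest.

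Levels could be set between genes per kilobase of the canonical transcript. In control EPAS1 stood highest, at 49.0 ± 4.54 CPM per kilobase (SD, n = 3), before EGLN1 at 38.9 ± 2.28, HIF1A at 19.9 ± 0.22, VHL at 17.8 ± 0.99 and ARNT at 15.3 ± 0.71. HIF1AN followed at 5.87 ± 0.46 CPM per kilobase, EGLN3 at 2.37 ± 0.31, ARNT2 at 0.212 ± 0.250 and HIF3A at 0.0611 ± 0.0322. The ranges of neighbours in this order did not overlap in control, except for ARNT2 and HIF3A, and EGLN2 was left out of the order for its shared exons. In MTR4 KD the ranges of HIF1A and VHL overlapped, with means of 18.2 and 20.0 CPM per kilobase. Over the union of all annotated exons HIF1A and VHL changed places in control, and in MTR4 KD EGLN1 stood above EPAS1, so those places depend on which transcript length is used.

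The balance between the alpha subunits was also followed inside each library, where scaling between libraries plays no part. The ratio of EPAS1 to HIF1A per kilobase was 2.67, 2.23 and 2.51 in control replicates 1 to 3 and 2.01, 2.08 and 2.28 in MTR4 KD replicates 1 to 3. The groups overlapped, since MTR4 KD 3 lay above control 2, and a two-sided exact permutation test gave p = 0.2, where 0.1 is the smallest that 3 against 3 can give. The ratio of EGLN3 to EGLN1 was 0.0563, 0.0568 and 0.0695 in control replicates 1 to 3 and 0.0266, 0.0212 and 0.0248 in MTR4 KD replicates 1 to 3. These groups did not overlap, and the exact permutation p was the smallest possible, 0.1. The ratio of HIF1A to ARNT was 1.31, 1.22 and 1.37 in control and 1.09, 1.05 and 1.18 in MTR4 KD, with no overlap and the same exact permutation p of 0.1.

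The HIF target genes gave the other side of the question. Among 21 targets of glucose uptake and glycolysis 15 (71.4%) fell and 0 rose, against 2.12% and 1.48% of all genes tested. Their median log2 fold change was −0.72, against 0.01 over all genes. ALDOC, a fructose-bisphosphate aldolase, fell from a mean of 10.2 to 3.03 CPM, with a log2 fold change of −1.75. SLC16A3, the lactate exporter MCT4, fell by 1.38 on the log2 scale, ENO2, an enolase, by 1.32, and PFKP, a phosphofructokinase, by 1.23. Leaving out control 1, MTR4 KD 1 or MTR4 KD 2 left 8, 8 and 7 of the 21 below the threshold, and SLC16A3 lost its call without either of those MTR4 KD libraries, at adjusted p of 0.0512 and 0.0530 by edgeR. PFKL, the liver phosphofructokinase, had −0.11 with an adjusted p of 0.380 by edgeR with Benjamini-Hochberg adjustment.

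Among 34 targets outside glycolysis 13 (38.2%) fell and 0 rose, against 2.12% and 1.48% of all genes tested. Their median log2 fold change was −0.34. CA9 stood at 5.11, 4.23 and 5.59 CPM in control replicates 1 to 3 and at 0.522, 0.614 and 1.06 CPM in MTR4 KD replicates 1 to 3, a log2 fold change of −2.76. IGFBP1, a liver-secreted binding protein of insulin-like growth factors, fell by 1.53 on the log2 scale, BHLHE40, a transcriptional repressor, by 1.50 and DDIT4, an inhibitor of mTORC1, by 1.45. VEGFA, the blood vessel growth factor, had a log2 fold change of −0.18, BNIP3, a mitophagy receptor, −0.21, and HMOX1, a haem oxygenase, 0.41, and none of these passed in the fit of the condition alone. In the fit with the read class 10.8% of all genes tested were lower and 9.43% higher. Of the 34 targets, 22 (64.7%) were lower in that fit and 1, HMOX1, was higher, at 0.50 with an adjusted p of 9.8e-05 by edgeR. Without control 1, control 3 or MTR4 KD 2 the count of lower genes was 8, 8 and 7. IGFBP1 lost its call when control 1, control 3, MTR4 KD 1 or MTR4 KD 2 was left out, at −1.41 to −1.45.

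Of 7 tested genes tied mainly to HIF-2 alpha, 2 (28.6%) fell and 0 rose, against 2.12% and 1.48% of all genes tested. EPO, the red cell hormone, fell by 1.62 on the log2 scale and CCND1, cyclin D1, by 0.58. The median of the 7 was −0.40. EPO was low, at 0.63 to 1.07 CPM in control and 0.22 to 0.31 CPM in MTR4 KD, and its call was lost with any library left out, at adjusted p of 0.0561 to 0.187 by edgeR with Benjamini-Hochberg adjustment. The call of CCND1 was lost without control replicate 1, at 0.0513, and without MTR4 KD replicate 2, at 0.0599.

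Set beside the targets, 53 of the 62 target genes had a lower fold change than HIF1A and 38 a lower one than EPAS1. Of all 18075 genes tested, 29.4% had a lower fold change than HIF1A and 12.8% a lower one than EPAS1. Against the control mean, HIF1A deviated by −0.10, −0.13 and −0.15 on the log2 scale in MTR4 KD replicates 1 to 3, and EPAS1 by −0.39, −0.37 and −0.26. The median glycolytic target deviated by −0.63, −0.71 and −0.70 in the same libraries. The median of the 34 targets outside glycolysis deviated by −0.34, −0.35 and −0.38, and that of the 7 HIF-2 tied targets by −0.35, −0.51 and −0.53. HIF1A thus lay nearer to control than each of the 3 target medians in all MTR4 KD libraries. EPAS1 lay nearer than the glycolytic median in all of them, but farther than the median of the other targets in MTR4 KD 1 and 2 and than that of the HIF-2 tied targets in MTR4 KD 1. These differences in distance were not tested.

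**Figure D3:**
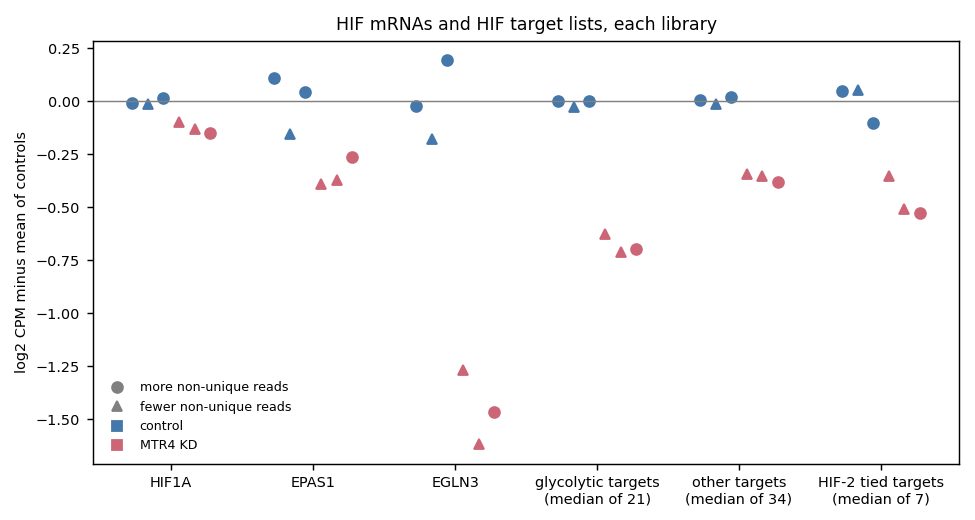
Log2 CPM of each library minus the mean of the controls (vertical axis) for HIF1A, EPAS1 and EGLN3 and for the median gene of each HIF target list, with control in blue, MTR4 KD in red and the read classes as circles and triangles. In the MTR4 KD libraries HIF1A lies between −0.10 and −0.15, EPAS1 between −0.26 and −0.39, the median glycolytic target between −0.63 and −0.71 and EGLN3 between −1.27 and −1.62.

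Of the other pathway lists, 4 had no gene past the test in the fit of the condition alone, where 3.6% of all genes tested passed. Of 5 partners of VHL in its ubiquitin ligase, ELOB, ELOC, CUL2, RBX1 and NEDD8, 0 passed, with log2 fold changes of −0.03 to 0.08, and 0 passed at an unadjusted p of 0.05 by edgeR, DESeq2 or limma-voom. Of 11 other factors of HIF alpha protein turnover 0 passed, at −0.18 to 0.18, and of 11 other oxygen-dependent dioxygenases 0 passed, at −0.35 to 0.27. Of 13 factors tied to HIF alpha transcription, mRNA or translation 0 passed, the lowest being ZFP36, an mRNA decay factor, at −1.02 with groups that overlapped. At an unadjusted p of 0.05 edgeR had 1 turnover factor lower, 1 dioxygenase lower and 1 higher, and 2 synthesis factors lower. The share of all genes at that unadjusted p is not given here. DESeq2 after adjustment called 1 dioxygenase higher and 0 in the other lists, and limma-voom called 0 in each. With the read class in the fit, 10.8% of all genes tested were lower and 9.43% higher. In that fit 2 of the 11 turnover factors were lower and 2 higher, and 2 of the 11 dioxygenases were lower and 1 higher. Of the 13 synthesis factors 2 were lower.

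Of 8 coactivators and their competitors 1 fell, where 2.12% of all genes tested did. CITED2, which competes with HIF alpha for its coactivators and is a known HIF target, stood at 99.8, 78.7 and 115.5 CPM in control replicates 1 to 3 and at 43.1, 40.8 and 54.7 CPM in MTR4 KD replicates 1 to 3. Its log2 fold change was −1.08 with an adjusted p of 0.0162 by edgeR with Benjamini-Hochberg adjustment, and the call was lost without control 1, control 3, MTR4 KD 1 or MTR4 KD 2, at −0.95 to −1.07. The coactivators EP300 and CREBBP had 0.07 and 0.06. Of 9 tested factors of the same bHLH-PAS family 1 fell, NPAS2, a clock factor, at −0.99 with an adjusted p of 0.0453, and its call was lost without the same 4 libraries, at adjusted p of 0.183 to 0.209 by edgeR. With the read class in the fit 4 of these 9 factors (44.4%) were lower and 0 higher, against 10.8% and 9.43% of all genes tested. Of the 8 coactivators and their competitors 1 was lower and 2 were higher in that fit. The antisense RNAs HIF1A-AS1 and HIF1A-AS3 were below the filter, with means under 0.04 CPM in both groups.

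The genes whose level followed each alpha subunit most closely over the 6 libraries were sought among genes of at least 10 CPM on average. For HIF1A they were TRIM6, CELSR1P1 and ARL6IP5, with Pearson's r of 0.998, 0.994 and 0.994. For EPAS1 they were ALAS1, the rate-limiting enzyme of haem synthesis, SLC6A8, a creatine transporter, and MMS19, with r of 0.999, 0.998 and 0.997. For EGLN3 they were F2RL1, a protease-activated receptor, ARL6IP5 and PCOLCE2, with r of 0.997, 0.996 and 0.996. The 6 points share 2 groups and 2 read classes, and 533, 679 and 629 genes had r above 0.9 with HIF1A, EPAS1 and EGLN3, so these values describe the libraries. CELSR1P1 is named as a pseudogene, whose count may share reads with its parent gene.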

How the data were processed

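Total RNA of 6 libraries of PLC/PRF5 was sequenced by the authors, and the members and gene lists used here were chosen with earlier results of these data known. The deposited values are raw counts of reads per Ensembl gene, and the submitters' processing notes name HISAT2 2.1.0, HTSeq, DESeq2 and the build GRCh38. The same deposited files tally reads without a unique position, of low quality and on more than 1 gene, which were kept out of library sizes and tests. Symbols were found for 42395 of the 60675 counted IDs. Genes were kept with edgeR's filterByExpr at a minimum count of 10, scaled by TMM and tested with the quasi-likelihood test in edgeR 4.0.16 (R 4.3.3) on the condition alone, over 18075 genes with Benjamini-Hochberg adjustment at 0.05. Intervals are 95% and cover the spread between libraries. Log2 CPM used a prior count of 2. The read class was set by a share of 30% of reads without a unique position, seen in the deposited tallies and named by no label. The fit with the read class, a replicate block, DESeq2 1.42.0, limma-voom (limma 3.58.1), other scalings and filters, thinning to the smallest library and leaving out each library were alternatives. The fit was checked on simulated data. Named genes were the 10 members, MTREX, up to 4 genes per list with the largest fold change among those that passed without overlap between groups, and the 3 genes most like HIF1A, EPAS1 and EGLN3. Other genes were named after their values were seen. Same-numbered libraries had correlated deviations of −0.24, 0.32 and 0.35, so the numbers were not taken to pair them. Promoter windows and positions came from RefSeq on GRCh38.p14, and transcript lengths from a GENCODE annotation. Values of 1 listed target gene are not reported here.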

Additional observations from a re-analysis of the deposited data

How the results depend on the processing

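Of 30 named genes other than MTREX, 567 alternatives gave 480 values counted as the same, and 6 turned the sign. For a tested alternative this meant the same direction and the same side of the threshold. For a difference within a read class, which had no test, it meant a value within the pooled SD of the main one. HIF3A had no adjusted p by DESeq2, so only its direction was compared there. Scaled to ACTB, HIF1A was 0.064, EGLN1 0.056 and ALAS1 0.0010, because that scaling shifts every gene by the change of ACTB. Without control replicate 2 and with the read class, a choice made after seeing the data, ARNT2 was 0.28. The condition term of that fit rests on MTR4 KD 3 alone, so its calls are not counted here. Within the class with more reads without a unique position ARNT2 was 0.30, and within the class with fewer EGLN2 was −0.095. MTREX was −0.91 within the class with fewer reads without a unique position. The number of members that passed was 1 in the condition-only fit, 2 by DESeq2's Wald test, 5 with the read class and 4 with the read class without control replicate 2, and it was 1 to 3 with a library left out. Over all genes those settings gave 650, 1363, 3649, 2817 and 137 to 803 calls, and the cause of the spread was not tested. Lower targets outside glycolysis numbered 22 with the read class, 20 with it without control replicate 2 and 7 to 15 with a library left out, and glycolytic ones 7 to 17. Lower HIF-2 tied targets numbered 5 by DESeq2, 5 with the read class, 4 with it without control replicate 2, 1 scaled to ACTB, and 0 to 2 with a library left out. A replicate block gave 5 for this list, 1 for the members and 857 for all genes, but the numbers were not taken to pair the libraries: MTR4 KD 1 followed control 2 (r = 0.36) rather than control 1 (r = −0.24). The block changed no call of a member. With each library left out, the rest were assumed to vary alike. HIF3A had at most 41 reads a library, and depth as the limit of its result was not tested.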
